A study of Mus musculus with 3 samples.

Results

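The mitochondrial ribosomal protein genes were described in single cells of 3 sorted mouse bone marrow populations. They were taken as every gene whose symbol begins with Mrpl or Mrps followed by a digit, which gave 77 of the 27998 genes in the count matrices, 48 with a large subunit name (Mrpl) and 29 with a small subunit name (Mrps). The cytosolic ribosomal protein genes, a separate group of 102 genes with Rpl or Rps symbols, were kept apart from them, because their share of the RNA differed between the populations and every level below depends on whether they are counted in the total.

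The populations were sorted from C57BL/6J bone marrow by surface markers, per the labels. LMPP, lymphoid-primed multipotent progenitors, were cKit+ Sca1+ Flt3+ and negative for IL7Ra and B220. CLP, common lymphoid progenitors, were cKit+ Sca1+ IL7Ra+ and negative for B220, with Flt3 given as +/-, and pro-B cells were cKit+ IL7Ra+ B220+ and negative for Sca1 and Flt3. Each population gave 1 library of droplet-based 3′ RNA sequencing (10x Single Cell 3′ v2), in which a unique molecular identifier (UMI) counts each captured transcript once. Cultured Id3-ERT2 progenitors named in the labels were not analysed here.

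The mitochondrial ribosome translates the few mRNAs encoded by mitochondrial DNA, all of them for subunits of the respiratory chain and ATP synthase. Its RNAs come from the mitochondrial genome, whereas its proteins are encoded in the nucleus, made on cytosolic ribosomes and imported. Some descend from bacterial ribosomal proteins, and others are found only in mitochondrial ribosomes.

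The 3 libraries held 599 (LMPP), 979 (CLP) and 1123 (pro-B) barcodes, where the labels state about 3000 cells loaded, and 579, 948 and 1106 cells were kept. They held 4014657, 5967352 and 7367156 UMIs, with a median of 6789 UMIs per LMPP cell, 6258.5 per CLP cell and 5687.5 per pro-B cell. The libraries shared 3, 2 and 1 barcode sequences (CLP and LMPP, pro-B and CLP, pro-B and LMPP). Of the 5 genes behind the sort markers, Il7r, Flt3 and Ly6a (Sca1) followed the labels, while Kit and Ptprc were lowest in pro-B cells, which were sorted as cKit+ and B220+. Il7r stood at 3.74 CPM (UMIs per 1000000 library UMIs) in LMPP cells, 141 in CLP cells and 104 in pro-B cells, Flt3 at 279, 300.5 and 5.16 CPM and Ly6a at 114, 41.1 and 6.11 CPM. Kit stood at 85.2 CPM in LMPP cells, 28.3 in CLP cells and 7.47 in pro-B cells. Ptprc, which encodes every form of CD45 including B220, stood at 59.3, 80.3 and 33.4 CPM, and a 3′ tag does not separate these forms. Ebf1, a transcription factor of the B lineage, stood at 7.97, 472 and 3567 CPM. As each population had 1 library, there was neither a replicate nor a test, so that a population and its library cannot be told apart, and each interval below (95%) covers counting error only.

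All 77 genes had UMIs in every library, and all 77 reached the filter of 10 CPM on average over the libraries, the lowest being Mrpl53 at 13.5 CPM in LMPP cells, 7.71 in CLP cells and 9.37 in pro-B cells. The median gene stood at 61.8 CPM in LMPP cells, 57.5 in CLP cells and 96.2 in pro-B cells, and the highest at 276 CPM (Mrpl52), 229 CPM (Mrpl33) and 318 CPM (Mrpl18). Together they made up 23022 UMIs in LMPP cells, 32161 in CLP cells and 60471 in pro-B cells. The summed level was 5734 CPM in LMPP cells (5661 to 5809), 5389 in CLP cells (5331 to 5449) and 8208 in pro-B cells (8143 to 8274). Pro-B cells were thus highest and CLP slightly below LMPP.

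**Figure D1:**
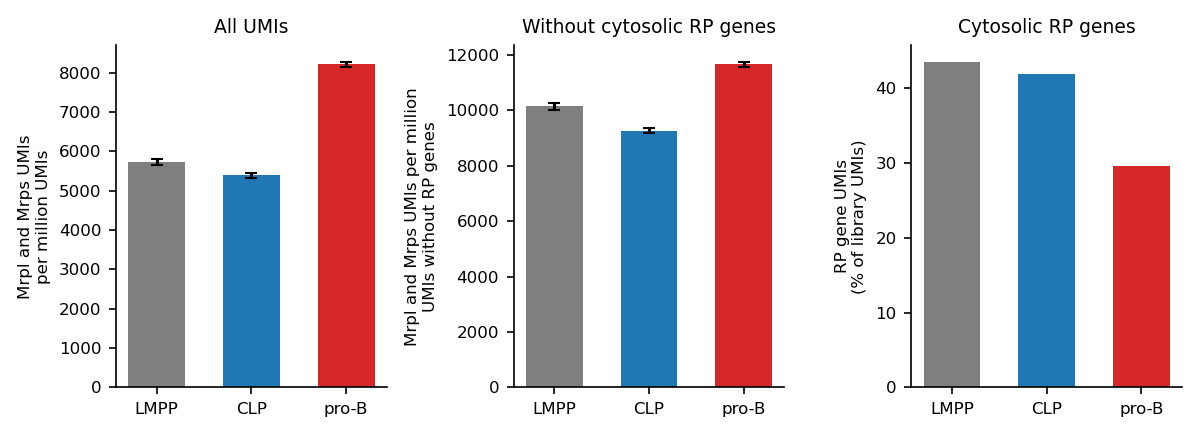
Summed UMIs of the 77 Mrpl and Mrps genes per 1000000 library UMIs (left) and per 1000000 UMIs left without the 102 cytosolic ribosomal protein (RP) genes (middle), with exact 95% Poisson intervals, and the percentage of library UMIs from the RP genes (right), 1 library per bar. Pro-B cells stand highest under either total, at 8208 and 11658, and have the lowest RP share, 29.6%.

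The size of the difference between pro-B cells and the progenitors depended on the total. The share of UMIs from cytosolic ribosomal protein genes was 43.5% for LMPP, 41.9% for CLP and 29.6% for pro-B cells, which left 2268900, 3469261 and 5186884 UMIs for all other genes. Per 1000000 of these UMIs, the mitochondrial ribosomal protein genes stood at 10147 in LMPP cells (10016 to 10279), 9270.3 in CLP cells (9169 to 9372) and 11658 in pro-B cells (11566 to 11752). The order of the populations was the same, but the pro-B to CLP ratio was smaller. It was 1.52-fold (log2 0.61, 0.59 to 0.63) over all UMIs and 1.26-fold (log2 0.33, 0.31 to 0.35) without the cytosolic genes. For pro-B over LMPP the log2 ratio was 0.52 (0.50 to 0.54) over all UMIs and 0.20 (0.18 to 0.22) without them. For CLP over LMPP it was -0.09 (-0.11 to -0.07) and -0.13 (-0.15 to -0.11). Relative to all UMIs, this second scaling shifts the log2 ratio of any gene by -0.28 between pro-B cells and CLP, by -0.32 between pro-B cells and LMPP, and by -0.04 between CLP and LMPP.

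The balance between the cytosolic and the mitochondrial set needs no total. In LMPP there were 75.8 UMIs of cytosolic ribosomal protein genes for each UMI of a mitochondrial one and in CLP 77.7, but in pro-B cells 36.1. Per cell, mitochondrial ribosomal protein genes gave on average 39.8 UMIs in LMPP cells, 33.9 in CLP cells and 54.7 in pro-B cells, whereas the cytosolic genes gave 3015, 2635 and 1971.

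For single genes a ratio of 1.5-fold or more was counted as a difference, read against all 7336 genes that reached 10 CPM on average. In pro-B cells against CLP, 40 of the 77 genes were 1.5-fold or more higher and 0 lower over all UMIs, where 25.4% of all genes were higher and 22.4% lower. Without the cytosolic ribosomal protein UMIs, 20 were higher and 1, Mrps6, lower, where 16% of all genes were higher and 32.9% lower. The median log2 ratio of the 77 genes was 0.62 over all UMIs and 0.34 without the cytosolic genes, beside 0.05 and -0.22 over all genes. The direction was shared widely, with 74 of 77 ratios above 0 over all UMIs, beside 3856 of all 7336 genes. Without the cytosolic genes 63 of 77 were above 0, beside 2863 of 7336.

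Against LMPP, 33 of the 77 genes were 1.5-fold or more higher in pro-B cells and 0 lower over all UMIs, where 25.6% of all genes were higher and 21.7% lower. Without the cytosolic genes 15 were higher and 3 lower, where 15.7% of all genes were higher and 33.4% lower, so that the share of members called higher (19.5%) was near that of all genes. The same pro-B library enters the comparisons with CLP and with LMPP. Between CLP and LMPP 0 of the 77 genes were higher and 3 lower under either scaling. All genes were higher in 10.4% and lower in 7.52% over all UMIs, and higher in 9.34% and lower in 8.47% without the cytosolic genes. All 77 lay within 2-fold in this comparison, where 93.4% of all genes did.

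**Figure D2:**
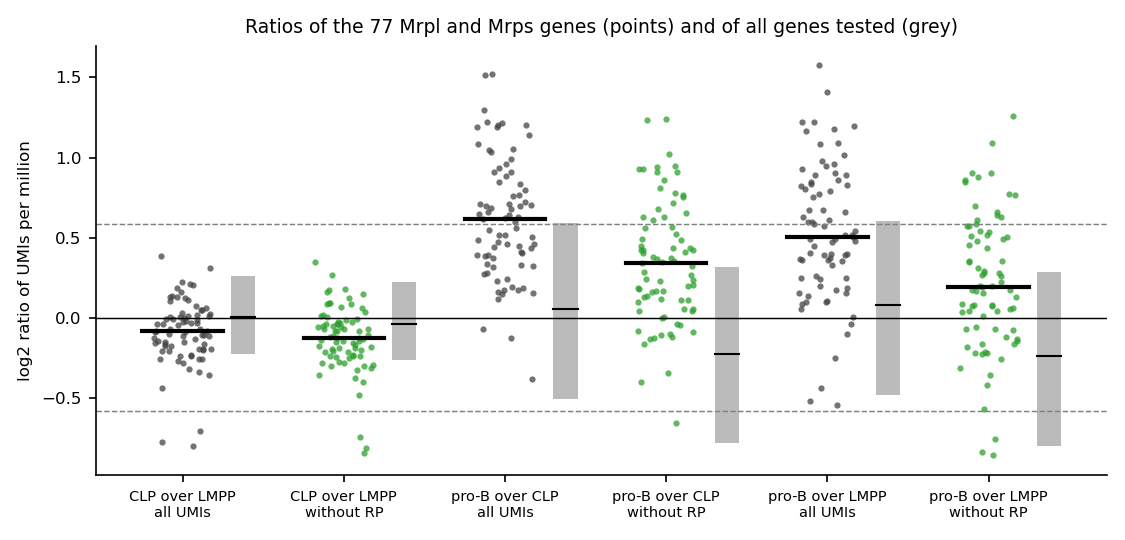
Log2 ratios of each of the 77 Mrpl and Mrps genes (points, with their median as a thick line) in 3 comparisons, over all UMIs (dark) and over UMIs without cytosolic ribosomal protein (RP) genes (green). Grey boxes give the middle 50% of the 7336 genes tested and their median, and dashed lines mark 1.5-fold. The points of pro-B over CLP centre on 0.62 and 0.34, and those of CLP over LMPP on -0.08 and -0.12.

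The 10 genes with the highest mean level split by how far they differed in pro-B cells. Mrpl18, the homologue of a bacterial protein that binds the small RNA of the large subunit, stood at 141 CPM in LMPP cells, 154 in CLP cells and 318 in pro-B cells. Its pro-B to CLP log2 ratio was 1.04 (0.93 to 1.16) over all UMIs and 0.77 (0.66 to 0.88) without the cytosolic genes. Mrps21 stood at 135, 139 and 265 CPM (log2 0.93, 0.81 to 1.05, pro-B over CLP) and Mrps14 at 168, 163 and 283 CPM (log2 0.80, 0.69 to 0.91), both small subunit proteins with bacterial homologues. In these 3 genes the CLP to LMPP interval included 0, and pro-B cells stood above both.

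Mrps24, Mrps33, Mrpl23, Mrpl30, Mrpl52 and Mrpl34 were higher in pro-B cells than in CLP by less than 1.5-fold. Mrps33, a small subunit protein specific to mitochondria, stood at 193 CPM in LMPP cells, 178 in CLP cells and 255 in pro-B cells, and Mrpl23 at 228, 178 and 242 CPM. For Mrpl23 the pro-B to LMPP log2 ratio of 0.09 (-0.03 to 0.20) included 0, and without the cytosolic genes it was -0.23 (-0.35 to -0.11). Mrps24, whose exons overlap those of Urgcp on the same strand, stood at 133, 124 and 184 CPM. Mrpl30 stood at 149.7, 170.4 and 213 CPM, and without the cytosolic genes its pro-B to CLP log2 ratio of 0.04 (-0.07 to 0.16) included 0.

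Of these 10 genes Mrpl33 alone had a pro-B to CLP ratio below 0. Mrpl33, a short protein with a bacterial homologue whose gene overlaps a predicted gene model on the same strand, stood at 234, 229 and 218 CPM, a pro-B to CLP log2 ratio of -0.07 (-0.18 to 0.03), and at -0.35 (-0.45 to -0.24) without the cytosolic genes. Mrpl34 stood at 142, 139.8 and 159 CPM, and its ratio of 0.19 (0.06 to 0.32) became -0.09 (-0.21 to 0.04). Mrpl52 was highest in LMPP, at 276 CPM, with 162 in CLP and 204 in pro-B cells. Its log2 ratio was 0.33 (0.22 to 0.45) for pro-B over CLP and -0.44 (-0.55 to -0.33) for pro-B over LMPP, and without the cytosolic genes 0.06 (-0.06 to 0.18) and -0.76 (-0.87 to -0.64).

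**Figure D3:**
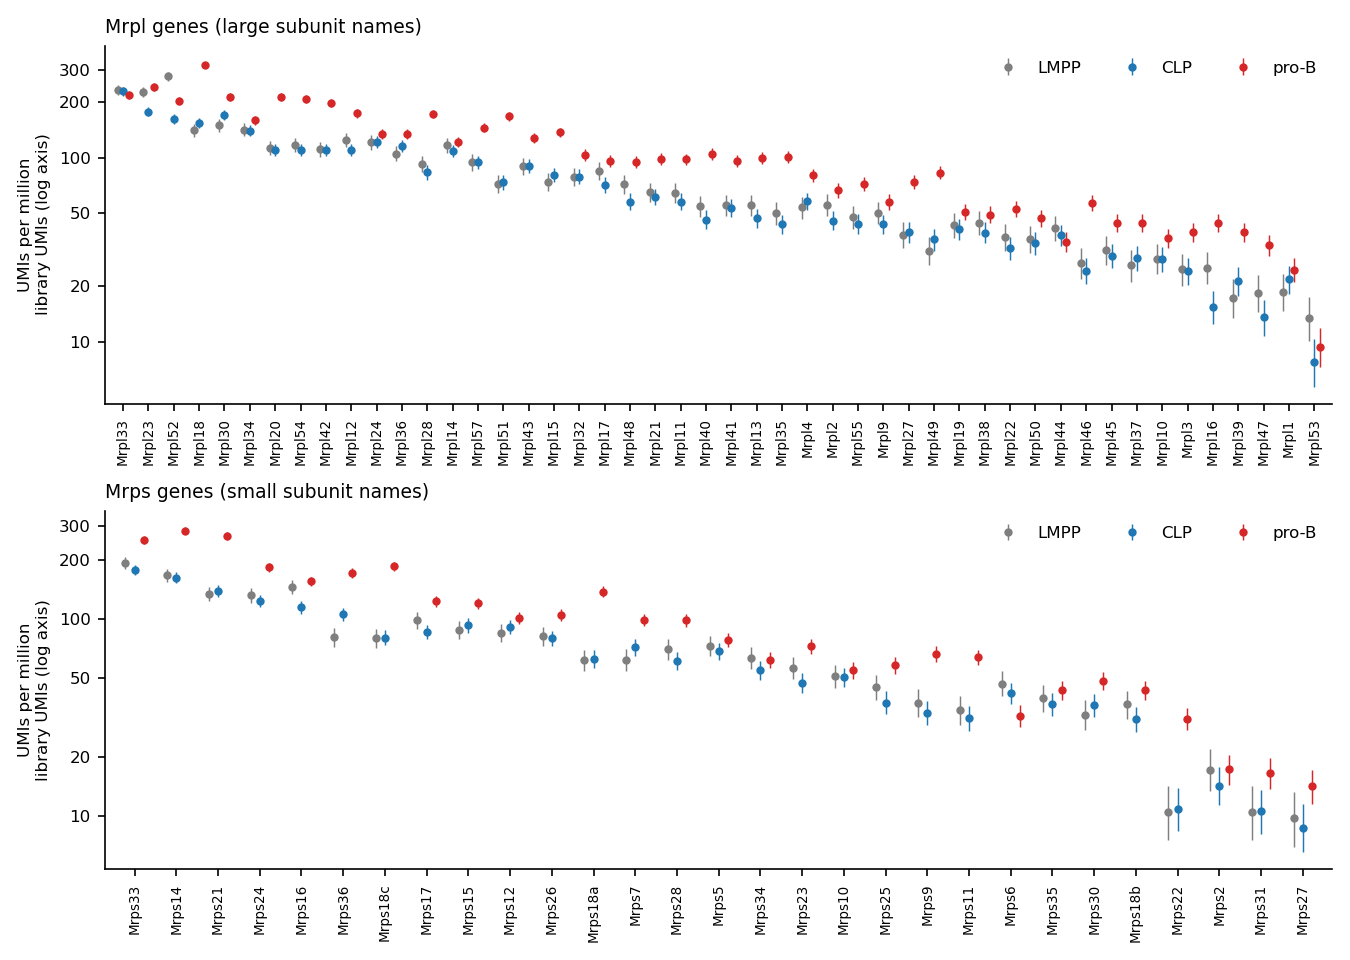
Level of each Mrpl gene (upper panel) and Mrps gene (lower panel) in UMIs per 1000000 library UMIs on a log axis, ordered by mean level, with exact 95% Poisson intervals. Points are 1 library each (LMPP grey, CLP blue, pro-B red). Over this total 71 of the 77 genes are highest in pro-B cells, while Mrpl33, Mrpl52, Mrpl44, Mrpl53, Mrps34 and Mrps6 are highest in LMPP. Without the cytosolic ribosomal protein UMIs, not drawn, 53 are highest in pro-B cells, 21 in LMPP and 3 in CLP. Like counts over all genes are not given.

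Most of the highest pro-B to CLP ratios belonged to genes of low level. Mrps22, a mitochondria-specific small subunit protein (ENSMUSG00000032459, mm10 chromosome 9, 98588730 to 98601660, minus strand), stood at 10.5 CPM in LMPP cells, 10.9 in CLP cells and 31.2 in pro-B cells, from 42, 65 and 230 UMIs. Its pro-B to CLP log2 ratio was 1.52 (1.12 to 1.94). Mrpl16, a large subunit protein with a bacterial homologue (ENSMUSG00000024683, chromosome 19, 11770391 to 11774960, plus strand), stood at 25.2, 15.4 and 44.0 CPM, a ratio of 1.51 (1.17 to 1.86) that starts from a CLP level below that of LMPP. Mrpl47, a large subunit protein with a bacterial homologue, stood at 18.4, 13.6 and 33.4 CPM (1.30, 0.93 to 1.68), and Mrpl46, specific to mitochondria, at 26.7, 24.3 and 56.7 CPM (1.22, 0.95 to 1.51). Mrpl35 (log2 1.21, 1.01 to 1.42) and Mrpl49 (1.20, 0.98 to 1.44) followed. Without the cytosolic genes these 6 ratios were 0.93 to 1.24, all past 1.5-fold.

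At the other end, 3 genes were lower in pro-B cells than in CLP over all UMIs. Mrps6 (ENSMUSG00000039680, chromosome 16, 92058270 to 92112227, plus strand), whose bacterial homologue sits on the platform of the small subunit, stood at 47.1 CPM in LMPP cells, 42.1 in CLP cells and 32.3 in pro-B cells, a pro-B to CLP log2 ratio of -0.38 (-0.64 to -0.12) over all UMIs and -0.66 (-0.92 to -0.40) without the cytosolic genes. Exons of Slc5a3 overlap Mrps6 on the same strand, so its count is uncertain. Mrpl44, a large subunit protein with a ribonuclease III fold, stood at 41.4, 37.9 and 34.7 CPM (-0.12, -0.39 to 0.14), and its interval and that of Mrpl33 included 0. Mrps10 (log2 0.11, -0.10 to 0.33), Mrps12, the homologue of the bacterial protein at the decoding site (0.15, -0.02 to 0.31), and Mrpl24 (0.15, 0.01 to 0.29) came next, all with a negative ratio without the cytosolic genes. The interval of the pro-B to CLP ratio included 0 for 9 of the 77 genes over all UMIs and for 27 without the cytosolic genes.

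Between CLP and LMPP most genes could not be told apart, as the interval of 64 of 77 included 0. Mrpl52, a large subunit protein specific to mitochondria (ENSMUSG00000010406, chromosome 14, 54426909 to 54429756, plus strand), stood at 162 CPM in CLP, from 965 UMIs, and 276 CPM in LMPP, from 1110 UMIs, which made CLP 1.71-fold lower (log2 -0.77, -0.90 to -0.65). Mrpl53 stood at 7.71 CPM in CLP and 13.5 in LMPP (-0.80, -1.40 to -0.21) on 46 and 54 UMIs, and its exons also overlap a predicted gene model on the same strand. Mrpl16 stood at 15.4 CPM in CLP and 25.2 in LMPP (-0.71, -1.13 to -0.28). Mrpl47 (-0.44, -0.91 to 0.03), Mrpl23 (-0.36, -0.49 to -0.23) and Mrps16 (-0.34, -0.50 to -0.18) followed. Of the 10 genes listed first by level, Mrpl52 alone was past 1.5-fold here.

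The highest CLP to LMPP ratio was that of Mrps36, at 106 CPM in CLP and 81.2 CPM in LMPP (log2 0.39, 0.19 to 0.58), with 172 CPM in pro-B cells. Despite its name this protein is assigned to the 2-oxoglutarate dehydrogenase complex in humans and yeast and not to the ribosome. Mrpl39 (0.31, -0.13 to 0.75), Mrpl1 (0.22, -0.20 to 0.65), Mrps7 (0.21, -0.02 to 0.44) and Mrpl49 (0.20, -0.12 to 0.53) had intervals that included 0, whereas that of Mrpl30 (0.19, 0.04 to 0.33) did not. Annotated processed pseudogenes carry the names of Mrps36, Mrpl23 and Mrpl48, and reads could be split between them, so these 3 levels are uncertain.

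Shares within the set depend on no library total. Mrpl52 made up 4.82% of all mitochondrial ribosomal protein UMIs in LMPP cells, 3.001% in CLP cells and 2.48% in pro-B cells, and Mrpl33 made up 4.08%, 4.25% and 2.66%. Mrpl18 moved the other way, with 2.45%, 2.86% and 3.88%. Of the 77 shares, 67 lay within 1.5-fold between pro-B cells and CLP, 7 were higher and 3 lower in pro-B cells. The extremes were Mrps6, 0.394% in pro-B cells against 0.780% in CLP, and Mrps22, 0.380% in pro-B cells against 0.202% in CLP. Between CLP and LMPP 74 shares lay within 1.5-fold. These counts are relative to the sum of the set. No like count over all genes is given, so they cannot be read against all genes. The standard deviation of the log2 share ratios over the 77 genes was 0.38 between pro-B cells and CLP, 0.43 between pro-B cells and LMPP and 0.21 between CLP and LMPP, a spread that includes counting error.

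Both subunits were higher in pro-B cells to a like degree. The Mrpl genes summed to 3684.5 CPM in LMPP cells, 3419.8 in CLP cells and 5216 in pro-B cells, and the Mrps genes to 2049.99, 1969.7 and 2992 CPM. The pro-B to CLP log2 ratio was 0.61 (0.59 to 0.63) for the Mrpl sum and 0.60 (0.57 to 0.64) for the Mrps sum. Sorted by textbook assignment, with Mrps18a and Mrps30 placed in the large subunit, large subunit proteins found only in mitochondria had a ratio of 0.72 (0.68 to 0.76) and those with bacterial homologues 0.57 (0.54 to 0.60). In the small subunit the order of the sums was the other way, with 0.50 (0.43 to 0.57) for mitochondria-specific proteins and 0.60 (0.56 to 0.64) for those with bacterial homologues. Mrps33 alone gave 1875 of the 4849 pro-B UMIs of the mitochondria-specific small subunit genes. By the median gene, mitochondria-specific proteins stood higher in both subunits, at 0.68 against 0.60 (large) and 0.62 against 0.48 (small). Of these 4 groups, 13 of 20, 15 of 30, 5 of 9 and 6 of 17 genes were 1.5-fold or more higher in pro-B cells than in CLP, beside 25.4% of all genes.

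Genes of 6 proteins of the same ribosome that carry other names were, in sum, also higher in pro-B cells. Over all UMIs, all 6 ratios of pro-B cells over CLP were above 0, with a summed log2 ratio of 0.69 (0.63 to 0.76). Of the 6 genes 4 were 1.5-fold or more higher, beside 25.4% of all genes. Without the cytosolic ribosomal protein UMIs 1 of the 6 (16.7%) was higher, near the 16% of all genes, and 1 ratio was below 0. Chchd1 stood at 142 CPM in LMPP cells, 117 in CLP cells and 214 in pro-B cells, Aurkaip1 at 128, 103 and 178 CPM and Gadd45gip1 at 126, 113 and 146 CPM. All 3 are known as mitoribosomal proteins.

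Over all UMIs, factors that build or serve the ribosome differed in either direction. Of 12 assembly factors that reached the filter, of 23 listed, 1 was higher and 1 lower in pro-B cells than in CLP. Their median log2 ratio was 0.02, and of all genes 25.4% were higher and 22.4% lower. Without the cytosolic ribosomal protein UMIs 0 were higher and 4 (33.3%) lower, with a median log2 ratio of -0.26. The share lower was then near the 32.9% of all genes, of which 16% were higher. Rbfa, which matures the small subunit, stood at 92.2 CPM in LMPP cells, 85.0 in CLP cells and 61.9 in pro-B cells, and Dhx30, an RNA helicase, at 51.6, 51.4 and 33.1 CPM. Malsu1, a factor of the large subunit, stood at 32.1, 38.5 and 41.0 CPM. The levels of Rbfa and Dhx30 were lowest in pro-B cells.

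Of 10 translation factors and related genes that reached the filter, of 15 listed, 4 were higher and 2 lower in pro-B cells than in CLP, beside 25.4% and 22.4% of all genes. The share lower (20%) was near that of all genes. Without the cytosolic ribosomal protein UMIs 2 (20%) were higher and 2 (20%) lower, beside 16% and 32.9% of all genes. The summed log2 ratio was then 0.06 (-0.02 to 0.14). Tsfm, an elongation factor, stood at 37.1 CPM in LMPP cells, 31.2 in CLP cells and 67.3 in pro-B cells, whereas Mtif2, the initiation factor, stood at 57.0, 54.1 and 30.0 CPM. Slirp, which binds mitochondrial mRNAs, stood at 123, 121 and 173 CPM. Of 8 mitochondrial tRNA synthetases that reached the filter, of 17 listed, 3 were higher and 0 lower over all UMIs. Without the cytosolic ribosomal protein UMIs 1 (12.5%) was higher and 0 lower, beside 16% and 32.9% of all genes. The 3 with the highest mean level differed in either direction. Tars2 stood at 16.4, 14.4 and 36.6 CPM, Cars2 at 28.9, 23.8 and 19.7 CPM and Fars2 at 23.2, 20.4 and 23.1 CPM.

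Of 12 genes of mitochondrial DNA upkeep, transcription and biogenesis, of 16 listed, 2 (16.7%) were higher and 3 (25%) lower in pro-B cells than in CLP. Over all UMIs these shares were near those of all genes (25.4% and 22.4%). Without the cytosolic ribosomal protein UMIs 0 were higher and 5 (41.7%) lower, beside 16% and 32.9% of all genes. Ssbp1, which binds single-stranded mitochondrial DNA, stood at 135, 146 and 132 CPM, and Yy1, a transcription factor, at 63.0, 63.7 and 72.6 CPM. Myc, a transcription factor known to raise nuclear genes of mitochondria, stood at 115 CPM in LMPP cells, 134 in CLP cells and 23.6 in pro-B cells, a pro-B to CLP log2 ratio of -2.50 (-2.74 to -2.26). Any relation of Myc to the Mrpl and Mrps levels was not tested. Of 22 import genes 6 (27.3%) were higher, near the 25.4% of all genes, and 0 lower, beside 22.4% of all genes. Without the cytosolic ribosomal protein UMIs 4 (18.2%) were higher, near the 16% of all genes, and 1 (4.55%) lower, beside 32.9%. Tomm7, Tomm20 and Timm13 stood at 581, 448 and 368 CPM in pro-B cells and 399, 384 and 201 CPM in CLP.

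The products of the 2 genomes of the respiratory chain differed in opposite directions. Of 77 nuclear oxidative phosphorylation genes that reached the filter, of 84 found, 54 were higher and 2 lower in pro-B cells than in CLP. Of all genes 25.4% were higher and 22.4% lower. The nuclear genes summed to 32724 CPM in pro-B cells and 20039 CPM in CLP (log2 0.71, 0.70 to 0.72). Cox8a stood at 934 CPM in LMPP cells, 843 in CLP cells and 1154 in pro-B cells, Cox4i1 at 872, 848 and 1057 CPM and Cox7a2l at 835, 858 and 889 CPM. Of the 13 mRNAs encoded by mitochondrial DNA, which the mitochondrial ribosome translates, 0 were higher and 7 lower, beside 25.4% and 22.4% of all genes. These 13 mRNAs summed to 26743.5 CPM in LMPP cells, 31025 in CLP cells and 20896 in pro-B cells (log2 -0.57, -0.58 to -0.56, pro-B over CLP). mt-Co1 stood at 5893 CPM in LMPP cells, 7079 in CLP cells and 3588 in pro-B cells, mt-Atp6 at 5714, 6609 and 4113 CPM and mt-Co3 at 5047.5, 5793 and 4316 CPM. Without the cytosolic ribosomal protein UMIs the summed log2 ratios were 0.43 (0.42 to 0.44) for the nuclear and -0.85 (-0.86 to -0.84) for the mitochondrially encoded genes, and 0.42 (0.35 to 0.49) for the other-named ribosomal proteins. Under that total 33 of the 77 nuclear genes were higher and 2 lower, and of the 13 mRNAs 0 were higher and 12 lower. Of all genes, 16% were then higher and 32.9% lower. Cells over 10% mitochondrial UMIs had been left out of all 3 libraries.

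**Figure D4:**
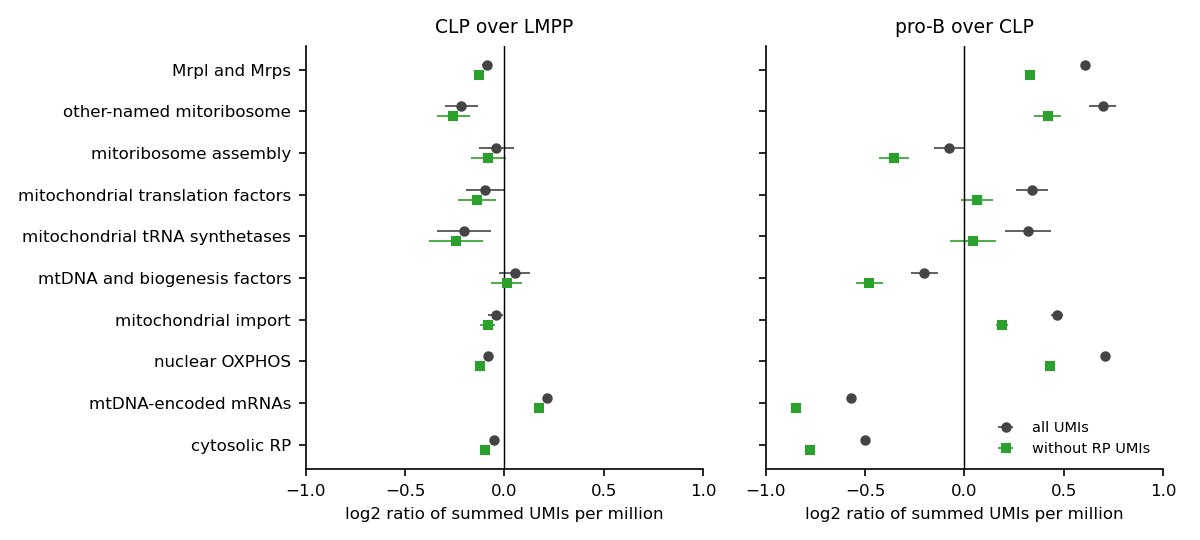
Log2 ratio of the summed CPM of each gene list for CLP over LMPP (left) and pro-B over CLP (right), over all UMIs (circles) and without cytosolic ribosomal protein (RP) UMIs (squares), with exact 95% intervals. For pro-B over CLP the Mrpl and Mrps genes (0.61 and 0.33) and nuclear oxidative phosphorylation (OXPHOS) genes (0.71 and 0.43) lie right of 0, and mitochondrially encoded mRNAs (-0.57 and -0.85) lie left of it.

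In single cells thinned to 2000 UMIs each, the median cell held 11 mitochondrial ribosomal protein UMIs in LMPP cells (573 cells), 10 in CLP cells (908 cells) and 15 in pro-B cells (1070 cells). The quartiles were 9 and 13, 8 and 12, and 12 and 18. Unthinned, the medians were 37, 31 and 45. No cell thinned to 2000 UMIs lacked them, where 0 of 573, 908 and 1070 cells have exact upper limits of 0.642%, 0.405% and 0.344%. The variance over the mean was 1.06, 1.31 and 1.33, where random sampling of like cells gives about 1. Thinned to 1000 UMIs outside the cytosolic ribosomal protein genes, the medians were 10, 9 and 10 and the means 9.80, 8.80 and 10.7. There 1 of 577 LMPP cells, 1 of 928 CLP cells and 0 of 1106 pro-B cells lacked them. The distributions of the 3 populations overlapped widely under this second depth.

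Cycle transcripts differed strongly between the populations. Of thinned cells, 3.66% in LMPP cells, 5.62% in CLP cells and 52.6% in pro-B cells held 3 or more UMIs of 18 G2/M genes, and a further 25.3%, 28.7% and 18.8% held 3 or more of 18 S phase genes. Ube2c, which drives the exit from mitosis, stood at 6.23, 10.9 and 611 CPM, and Pcna, the clamp of DNA replication, at 86.2, 92.3 and 366 CPM. Within pro-B cells the mitochondrial ribosomal protein genes stood at 6929 CPM in cells with neither list, 8793 in cells with the S list only and 8335 in cells with the G2/M list. The pro-B ratio of S list to neither was 1.27-fold (log2 0.34, 0.30 to 0.39). For the same 3 classes LMPP had 5528, 6201 and 5850.3 CPM and CLP had 5128, 5740.4 and 6085 CPM.

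Among cells with neither list, the pro-B to CLP log2 ratio was 0.43 (0.39 to 0.47) and the pro-B to LMPP ratio 0.33 (0.28 to 0.37) over all UMIs. Without the cytosolic ribosomal protein UMIs as well, these cells stood at 9839 UMIs per 1000000 other UMIs in LMPP cells, 8991 in CLP cells and 9811 in pro-B cells. The log2 ratio was then 0.13 (0.09 to 0.17) against CLP and -0.0041 (-0.05 to 0.04) against LMPP, so that the pro-B to LMPP difference was not detectable. Cells with neither list held a median of 6383 UMIs in LMPP cells, 6085.5 in CLP cells and 3049 in pro-B cells, and the part of depth in these ratios was not tested.

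**Figure D5:**
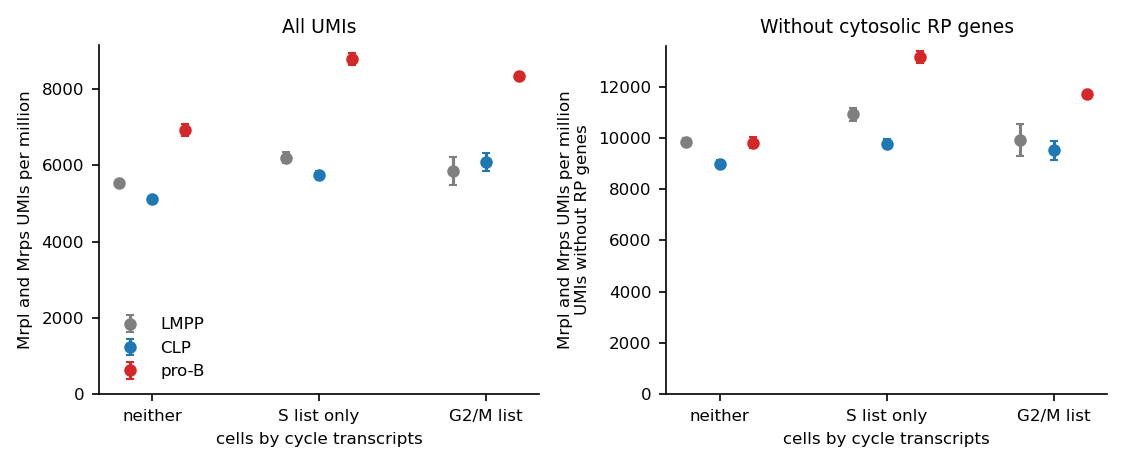
Summed UMIs of the 77 Mrpl and Mrps genes in CPM, over all UMIs (left) and without cytosolic ribosomal protein (RP) UMIs (right), in cells with few cycle transcripts (neither), with S phase transcripts only and with G2/M transcripts. Points are LMPP (grey), CLP (blue) and pro-B (red) with exact 95% Poisson intervals, and in the right panel the pro-B and LMPP points of the neither class meet at 9811 and 9839.

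Within pro-B cells, 16 of the 77 genes were 1.5-fold or more higher in the 764 cells with cycle transcripts than in the 306 with neither list, and 0 were lower, where 18% of all genes were higher and 25.5% lower. The share of the 77 genes called higher was near that of all genes. The median log2 ratio was 0.30 over the 77 genes and -0.11 over all genes. Mrps22 stood at 34.6 CPM in cells with cycle transcripts and 12.7 CPM in cells with neither, from 217 and 13 UMIs. Its log2 ratio was 1.44 (0.64 to 2.38), and CLP as a whole stood at 10.9 CPM. Mrpl42 stood at 214 and 104 CPM (1.05, 0.76 to 1.35), Mrpl28 at 186 and 93.8 CPM (0.98, 0.68 to 1.30) and Mrpl18 at 343 and 181 CPM (0.92, 0.71 to 1.15). At the other end Mrpl24 stood at 126 and 186 CPM (-0.56, -0.79 to -0.33) and Mrpl15 at 127 and 188 CPM (-0.56, -0.79 to -0.32). The genes named here, picked after their values were seen, thus differed in either direction within the pro-B library.

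Markers of other cell types also differed between the libraries. Dendritic cell markers summed to 417 CPM in LMPP cells, 979.7 in CLP cells and 210.4 in pro-B cells, where 6, 6 and 5 of 7 were detected, with Siglech at 0 in pro-B cells. Innate lymphoid markers summed to 154, 233 and 17.6 CPM (5, 8 and 4 of 9 detected) and were mostly Nkg7. T cell markers summed to 3.99, 8.38 and 0.679 CPM (2, 5 and 1 of 6 detected). Myeloid markers summed to 558, 173 and 82.7 CPM (8, 7 and 3 of 9 detected), with Elane at 0 in all 3. Erythroid markers summed to 52.1, 4.53 and 26.5 CPM (4, 5 and 4 of 7 detected). Megakaryocyte markers summed to 59.0, 5.70 and 0.814 CPM (5, 3 and 1 of 5 detected). Mature B cell markers summed to 89.9, 56.0 and 14.7 CPM (2, 4 and 5 of 5 detected). Their sum was highest in LMPP cells although Cr2, Cd22 and Ms4a1 were at 0 there, whereas all 5 were detected in pro-B cells. Only 1 of the 5 reached the filter, and its CLP to LMPP log2 ratio (-0.71) was close to that of the sum (-0.68). The sum is thus not read as a sign of mature B cells. Without cells holding 3 or more UMIs of Siglech, Nkg7 and Gata3, which left 489 LMPP, 733 CLP and 1104 pro-B cells, the summed log2 ratio was -0.10 between CLP and LMPP, 0.63 between pro-B cells and CLP and 0.53 between pro-B cells and LMPP. These 3 genes were chosen after seeing the data. Without cells holding 3 or more UMIs summed over the dendritic and innate lymphoid lists, 237 LMPP, 218 CLP and 888 pro-B cells were left. The ratios were then -0.16 (-0.21 to -0.10), 0.67 (0.63 to 0.72) and 0.52 (0.48 to 0.55). In CLP 7 genes were 1.5-fold or more lower than in LMPP, against 3 with all cells, and the share of all genes lower among these cells is not given.

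On the genome the 77 genes lay on 17 chromosomes, up to 10 of them on chromosome 11. A protein-coding gene on the other strand started within 1000 bases of 33 of them (42.9%), beside 18.7% of other protein-coding genes that reached the filter. Mrpl46 and Mrps11 are such a pair on chromosome 7, and Mrps11 stood at 34.6 CPM in LMPP cells, 31.3 in CLP cells and 64.1 in pro-B cells (log2 1.03, pro-B over CLP), beside 1.22 for Mrpl46. Mrpl47 (1.30) starts next to Ndufb5 (0.69) and Mrpl36 (0.23) next to Ndufs6 (1.06), both partners being subunits of respiratory complex I. Mrpl18 (1.04) starts next to Tcp1, a chaperonin subunit (0.56), and Mrpl51 (1.19) next to Ncapd2, a condensin subunit (1.82). Partners could also differ the other way, as Mrpl49 (1.20) starts next to Fau, which encodes a cytosolic ribosomal protein but is not among those 102 genes (-0.22), and Mrpl41 (0.84) next to Pnpla7 (-2.56). Of 19 partners that reached the filter, the Mrpl46 and Mrps11 pair counted from either side, 7 were 1.5-fold or more higher and 5 lower in pro-B cells than in CLP, beside 25.4% and 22.4% of all genes.

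Promoter sequences were read for 68 of the 77 genes, 74 windows of 300 bases, from the RefSeq annotation on GRCm38.p6. Each window was searched on both strands for core motifs of factors known to act on nuclear genes of mitochondria. The NRF1 core GCGCATGCG was in 9.46% of these windows, beside 4.30% for other genes that reached the filter and 1.75% for all promoters in the table. The ETS core CCGGAAG was in 33.8%, beside 20.6% and 8.86%, and the YY1 core AAGATGGCG in 10.8%, beside 3.63% and 1.40%. At least 1 motif was in 47.3%, beside 26.6% and 11.4%. A match is a description of the letters and not of binding.

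The following 100 bases upstream of the RefSeq start are shown for Mrps22, which had the highest pro-B to CLP ratio, for Mrpl22, which holds an ETS and an NRF1 core, and for Mrpl9, where the NRF1 core overlaps its own reverse complement. Capitals mark the motifs, and the sequences are on the strand of the gene, at chr9:98601680-98601779 (minus), chr11:58171564-58171663 (plus) and chr3:94443236-94443335 (plus) of GRCm38.
Mrps22: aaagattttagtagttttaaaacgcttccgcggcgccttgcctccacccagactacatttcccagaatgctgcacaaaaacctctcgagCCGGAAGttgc
Mrpl22: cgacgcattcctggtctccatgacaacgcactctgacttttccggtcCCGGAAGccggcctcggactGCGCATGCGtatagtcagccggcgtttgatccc
Mrpl9: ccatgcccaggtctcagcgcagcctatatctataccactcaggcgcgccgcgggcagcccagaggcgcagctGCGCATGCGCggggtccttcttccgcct

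The ETS core of Mrps22 begins 11 bases before its start and that of Mrpl22 begins 53 bases before its start. Beside them, Mrpl22 stood at 36.9 CPM in LMPP cells, 32.2 in CLP cells and 52.7 in pro-B cells (pro-B over CLP log2 0.71) and Mrpl9 at 50.1, 43.4 and 57.4 CPM (log2 0.40). The windows of Mrpl16 and Mrpl47, whose pro-B to CLP ratios were next to that of Mrps22, hold none of the 3 motifs.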

How the data were processed

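The authors deposited raw UMI counts for each barcode and gene, 1 matrix per population, which the submitters' processing notes credit to Cell Ranger and mm10. The chemistry was 10x Single Cell 3′ v2, per the labels. Not given in the sources used here were the Cell Ranger version, its annotation, its use of strand and how barcodes were called.

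A barcode was kept if it had at least 500 genes and no more than 10% mitochondrial UMIs, which left out 20, 31 and 17 barcodes in LMPP, CLP and pro-B. UMIs were summed per library and divided by all UMIs (CPM) or by UMIs outside cytosolic ribosomal protein genes, with a filter at a mean of 10 CPM and a difference counted from 1.5-fold. Intervals are 95% exact Poisson for levels and exact conditional (Clopper-Pearson) for ratios of UMI sums. PCR duplicates are collapsed by the identifiers, and intervals and the floor of 3 UMIs (0.747 CPM in LMPP, 0.503 in CLP, 0.407 in pro-B) cover counting error only. A 3′ tag has no length term, and levels of different genes were not compared as amounts, since capture can differ. No p-value was computed.

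For values per cell, cells were thinned to 2000 UMIs, or to 1000 outside the cytosolic genes, leaving out shallower cells (6, 40 and 36, or 2, 20 and 0). A cell with 3 or more thinned UMIs of a cycle list was assigned to it. Doublets were kept; scrublet in scanpy 1.11.5, at an expected rate of 1%, called 25, 16 and 0 cells, which an alternative left out. Tested on simulated counts for pro-B over CLP across 7336 genes, the ratios recovered 67 of 67 genes changed 2-fold and 4 of 67 changed 1.25-fold. The 2-fold change lies above the 1.5-fold cut and the 1.25-fold change below it.

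Positions are from GENCODE M21 on GRCm38 (mm10), where all 77 identifiers matched. Exons of 8 genes overlap another gene on the same strand (Mrpl33, Mrps24, Mrps18c, Mrpl51, Mrps34, Mrps6, Mrpl3 and Mrpl53) and those of 27 a gene on the other strand, so their counts may be shared. Python 3.11.15, NumPy 2.4.6, SciPy 1.17.1 and pandas 2.3.3 were used.

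The rule for named genes took the 10 with the highest mean CPM, the 6 highest and 6 lowest ratios between CLP and LMPP and between pro-B and CLP, and the 3 with the highest mean CPM of each other list. Genes named by shares, cycle ratios, neighbours or motifs were chosen after their values were seen. The members and lists were chosen with earlier results of these data known.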

Additional observations from a re-analysis of the deposited data

How the results depend on the processing

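No paired analysis was possible because each population has 1 library and the labels carry no replicate numbers. For the same reason no library could be left out. Among the alternatives, the sum kept its sign in each comparison except 1. With only cells low in cycle transcripts and the total without cytosolic ribosomal protein genes, an alternative chosen after seeing the data, pro-B over LMPP stood at a log2 of -0.0041 (8 genes higher, 6 lower), pro-B over CLP at 0.13 (9 higher, 1 lower) and CLP over LMPP at -0.13. Cells low in cycle transcripts over all UMIs gave 0.43 (25 higher) for pro-B over CLP and 0.33 (1 lower) for pro-B over LMPP. The total without cytosolic ribosomal protein genes gave 0.33 (20 higher, 1 lower) against CLP and 0.20 (15 higher, 3 lower) against LMPP for pro-B cells, and -0.13 for CLP over LMPP, and the total also without mitochondrially encoded genes 0.30 (19 higher, 1 lower), 0.17 (13 higher, 4 lower) and -0.12. Median-of-ratios factors gave 0.55 for pro-B over CLP and 0.44 (2 lower) for pro-B over LMPP, and equal weight per cell 0.56 and 0.46 (2 lower). A 2-fold threshold left 14 genes higher for pro-B over CLP, 10 for pro-B over LMPP and 0 lower for CLP over LMPP, and a mean of 50 CPM left 25 higher for pro-B over CLP and 1 lower for CLP over LMPP, since fewer genes can pass either. Without cells carrying dendritic or innate lymphoid markers, which left 237 LMPP, 218 CLP and 888 pro-B cells, CLP over LMPP stood at -0.16 (7 lower), pro-B over CLP at 0.67 and pro-B over LMPP had 1 lower. Without cells carrying Siglech, Nkg7 or Gata3, chosen after seeing the data, pro-B over CLP stood at 0.63. Without the cytosolic ribosomal protein genes in the total, 16% of all genes were higher and 32.9% lower against CLP, and 15.7% and 33.4% against LMPP. Within 2-fold lay 63 of the 77 genes and 75% of all genes for pro-B over CLP, and 67 and 74.0% for pro-B over LMPP. For the other alternatives the share of all genes is not given, so their counts cannot be read against all genes. Except where construction shows it, the cause was not tested. Keeping every barcode, stricter cell filters and leaving out scrublet calls changed neither a direction nor a count by over 1.5 times. Depth limits the genes of fewest UMIs most: the interval of Mrpl53 for pro-B over CLP was -0.28 to 0.85.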
